A study of Mus musculus with 24 samples.

Results

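The cells given both drugs, 6 libraries labelled CISPLATIN+AU15330, were compared across all genes with the 6 libraries labelled DMSO, which makes 12 of the 24 libraries of the experiment. The libraries were taken by their treatment label, a rule that uses no measured value. Every library came from ID8 P53 KO cells, a mouse ovarian cancer cell line whose Trp53 gene was knocked out, so the DMSO cells carried the same genotype. Both groups were grown in the same high-glucose medium with 4% serum, insulin, transferrin and selenium, and were collected after 6 days. The treated cells received 2.5 uM AU15330 together with cisplatin, for which the labels give 750 nM and the study's methods give another dose for these cells. The DMSO cells received the solvent. The other libraries, 6 with cisplatin alone and 6 with AU15330 alone, entered the same model, where they also bore on the filter for low counts and the estimate of the spread, and served to place the combination. A single line was used, and no source says whether the replicates of a group were separate cultures, so p-values measure the spread between these libraries.

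Cisplatin crosslinks DNA, which stalls replication forks and mitosis and can leave tumour cells alive in lasting growth arrest, a state known as therapy-induced senescence. AU15330 is a PROTAC, a compound that brings the ATPase subunits of the SWI/SNF complex, SMARCA4 and SMARCA2, to the cell's ubiquitin ligases for destruction. SWI/SNF moves nucleosomes at enhancers and promoters, where it opens binding sites for factors such as AP-1 and TEAD. DNA damage can also feed the cGAS-STING pathway, which senses DNA in the cytosol and switches on interferons, chemokines and antigen presentation.

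Between 17592588 and 23096222 reads were counted on genes per DMSO library and between 19896828 and 22343677 per combination library. Levels are given as CPM, counts divided by the library's size (scaled with edgeR's TMM factors), and 3 counts, the floor used here, equal 0.120 to 0.186 CPM in a library. Trp53, the disrupted gene, gave 21.6, 30.8 and 31.9 CPM in DMSO (lowest, median and highest) and 26.3, 29.5 and 35.5 CPM with the combination. The ranges overlapped, the difference was not called (log2 fold change 0.04 ± 0.085 standard error, edgeR quasi-likelihood test, Benjamini-Hochberg adjusted p = 0.67), and with no wild-type library these reads do not check the genotype. Wt1, Krt8, Krt18 and Msln, markers of the ovarian surface and mesothelium, were expressed in DMSO cells (median 836, 317, 615 and 536 CPM), whereas Epcam reached at most 2 counts in any DMSO library. Of other genes taken as markers of this identity, Foxl2, Emx2 and Aldh1a2 had 0 counts in every DMSO library. Pax8 reached at most 6 and Bnc1 at most 38 counts there, and Muc16 was not among the genes counted. Of 16 leukocyte markers, 12 had at most 3 counts in every DMSO library and 9 in every combination library. Their summed level was 6.79 to 19.1 CPM in DMSO and 24.9 to 42.9 CPM with the combination, almost all of it Cd68, without which the sums were 0.145 to 0.619 and 0.682 to 1.13 CPM. Cd68, the 1 leukocyte marker that could be tested, was higher with the combination (log2 fold change 1.52, with 0.72 in replicates 1 to 3 and 2.47 in replicates 4 to 6). Ptprc, which marks leukocytes in general, never passed 5 counts. Of 13 endothelial and fibroblast markers, 8 had at most 3 counts in every DMSO library and 3 in every combination library, and of the 7 that could be tested 4 were higher and 2 lower. Their sums were 30.7 to 52.5 and 51.7 to 85.0 CPM, and without Dcn they were 11.3 to 13.7 and 5.31 to 8.88 CPM. Lum, the fibroblast proteoglycan lumican, gave 0 counts in every DMSO library and 0.439 to 2.12 CPM with the combination. The part of such cells in the results was not tested.

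The replicates of a group were not alike, least of all in DMSO. Replicates 1 to 3 and replicates 4 to 6 of DMSO fell on opposite sides of the second principal component of the 12 libraries, which held 4.20% of the variance against 84.9% for the first, the one that parted the treatments. The median SD of a gene over replicates was 0.254 on the log2 scale in DMSO and 0.145 with the combination, and 82.7% of tested genes varied more in DMSO. The grouping of replicates 4 to 6 was not limited to DMSO. The chi-square per degree of freedom between the counts of a pair of libraries, which counting error alone would put near 1, was 3.78 to 5.77 within combination replicates 4 to 6 and 9.18 to 30.4 between them and combination replicates 1 to 3. The same ranges were 2.30 to 3.46 and 14.8 to 34.3 with AU15330, 5.92 to 7.84 and 18.5 to 68.0 with cisplatin, and 9.003 to 55.5 and 61.5 to 122 in DMSO. Replicate 1 also stood apart from its own set. With the combination its pairs with replicates 4 to 6 gave 19.1 to 30.4 and those with replicates 2 and 3 gave 33.3 and 33.6, whereas replicates 2 and 3 gave 3.80 with each other and 9.18 to 13.4 with replicates 4 to 6. In DMSO its pairs with replicates 2 and 3 gave 108 and 82.0, against 28.4 between replicates 2 and 3. Each comparison was therefore also made within replicates 1 to 3 and within replicates 4 to 6, a split chosen after the libraries had been seen, and both values are given for lists whose median changed sign or moved by more than 0.5 on the log2 scale. Among genes called over all libraries, those not called within replicates 1 to 3 included Vim, Canx, Ercc1, Scd1, Spry2, Mdm2 and Wt1. Those not called within replicates 4 to 6 included Gapdh.

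Most of the transcriptome differed between cells given both drugs and cells given DMSO. Of 12941 tested genes, 9486 (73.3%) passed the test, 4757 higher (36.8%) and 4729 lower (36.5%). At least 2-fold differences were called for 1853 genes upward (14.3%) and 1955 downward (15.1%). Every combination library lay above every DMSO library for 3222 genes (24.9%) and below for 3190 (24.7%), and the median log2 fold change of all tested genes was 0.00. The balance of directions depends on scaling, since with library totals in place of TMM factors the median of all genes moved up by 0.14 and 59.7% of calls were higher, against 50.1% with TMM factors. Among 9400 called genes that could be tested in both replicate sets, 7048 were called in the same direction in each. Log2 fold changes of opposite sign in the 2 sets, whether called there or not, were found for 52. With only the 12 libraries compared in the model, 8610 of 12260 tested genes were called, 4355 higher and 4255 lower. In bulk RNA, fewer cells of a kind and less RNA per cell cannot be told apart.

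**Figure D1:**
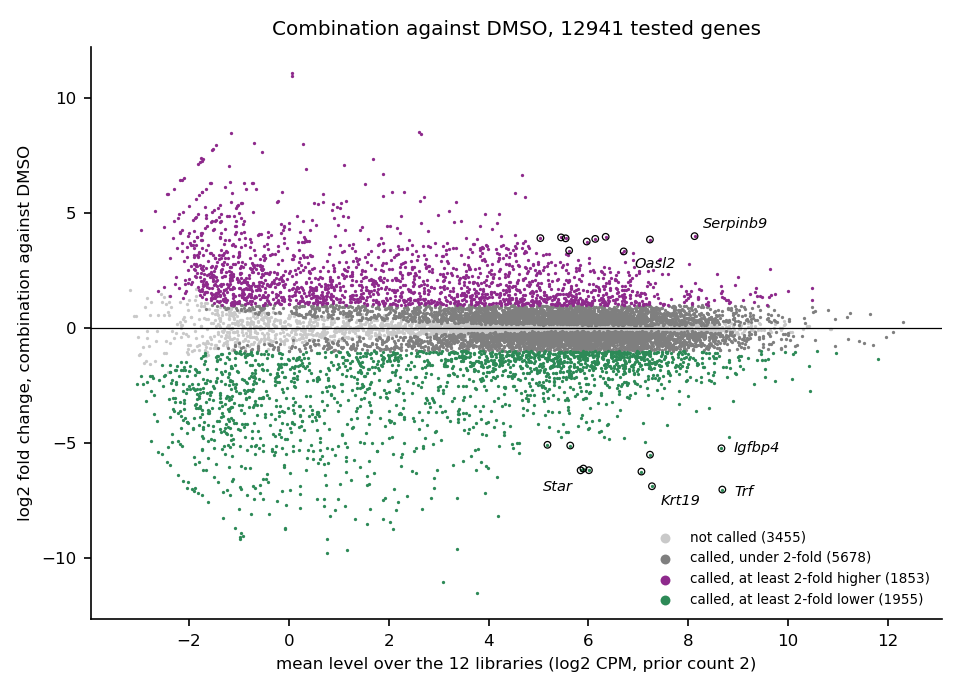
Each point is 1 of 12941 tested genes, with its mean level over the 12 libraries on the horizontal axis (log2 CPM) and the log2 fold change of the combination over DMSO on the vertical axis. The 1853 genes called at least 2-fold higher and the 1955 called at least 2-fold lower are coloured, and the downward arm of well-expressed genes, with Trf, Krt19 and Star near its end, reached farther from 0 than the upward arm.

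The largest increases among well-expressed genes are given by name, without a test of any shared role. Serpinb9, an inhibitor of the granzyme B that killer lymphocytes inject, ran from 55.9 to 81.3 CPM in DMSO (median 71.1) and from 931 to 1234 CPM with the combination (median 1142). The ranges were far apart, and the rise (log2 fold change 4.000 ± 0.11, edgeR adjusted p = 9.47e-21) stood above the level with cisplatin alone (139.6 ± 4.25 CPM, mean ± SD, n = 6) and was not called against AU15330 alone (1313 ± 175 CPM, adjusted p = 0.057). Mcm5, a subunit of the replicative helicase, ran from 15.99 to 29.2 CPM in DMSO (median 20.5) and from 291 to 376 CPM with the combination (median 321), with log2 fold change 3.97 ± 0.18. Uhrf1, which brings the maintenance methyltransferase to new DNA, ran from 8.29 to 14.7 CPM in DMSO (median 11.01) and from 160.0 to 190.2 CPM with the combination (median 173). Both were also higher with the combination than with cisplatin alone and than with AU15330 alone, Mcm5 by 1.24 and 2.05 and Uhrf1 by 1.22 and 1.43 on the log2 scale. Herc6, a ligase for the ubiquitin-like Isg15, ran from 10.5 to 14.1 CPM in DMSO (median 11.8) and from 139 to 196 CPM with the combination (median 188) and rose by 3.91 on the log2 scale. Ereg, the EGF receptor ligand epiregulin, ran from 12.4 to 26.4 CPM in DMSO (median 16.5) and from 242 to 313 CPM with the combination (median 271), a rise (log2 fold change 3.88 ± 0.15) that exceeded both single drugs (20.5 ± 2.73 CPM with cisplatin and 108 ± 9.76 CPM with AU15330). Kif20a, a kinesin of cytokinesis, rose by 3.77, and Irf7, Oasl1 and Oasl2, genes of the interferon response, by 3.91, 3.38 and 3.34. Oasl1 and Oasl2 are similar in sequence, and reads shared between them could have been counted on either.

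The largest decreases were deeper. Trf, the iron carrier transferrin, ran from 3174 to 7771 CPM in DMSO (median 4820.0) and from 23.6 to 56.3 CPM with the combination (median 38.8). No ranges met, and the fall (log2 fold change -7.03 ± 0.33, edgeR adjusted p = 3.89e-16) was not as deep as with AU15330 alone, where Trf averaged 6.15 ± 0.778 CPM. Krt19, a keratin of simple epithelia, ran from 1398 to 2518 CPM in DMSO (median 1611) and from 8.58 to 30.6 CPM with the combination (median 11.5). Bgn, the matrix proteoglycan biglycan, ran from 899.8 to 1673 CPM in DMSO (median 1137) and from 7.95 to 29.7 CPM with the combination (median 15.9). Their log2 fold changes were -6.88 and -6.25, and against AU15330 alone they were 1.11 (adjusted p = 0.00281) and 2.27 (adjusted p = 1.19e-05). Star, which carries cholesterol into mitochondria for steroid synthesis, ran from 518 to 609 CPM in DMSO (median 548) and from 6.05 to 9.39 CPM with the combination (median 7.32). Daam2, a formin of Wnt signalling, ran from 890.4 to 1168 CPM in DMSO (median 1011) and from 21.1 to 24.5 CPM with the combination (median 21.8), and had the smallest adjusted p of the 20 genes (2.01e-24). Igfbp4, a binding protein that holds insulin-like growth factors, fell to a median of 58.8 CPM from 2588 CPM. Kank3, Kctd14, Sprr1a (a cornified envelope protein) and Spns2 (the sphingosine-1-phosphate exporter) fell too, with log2 fold changes of -6.19, -6.11, -5.11 and -5.08. With cisplatin alone all 10 genes stayed high, from 153 ± 74.9 CPM for Sprr1a to 2342 ± 1141 CPM for Trf, and each was lower with the combination than with cisplatin.

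**Figure D2:**
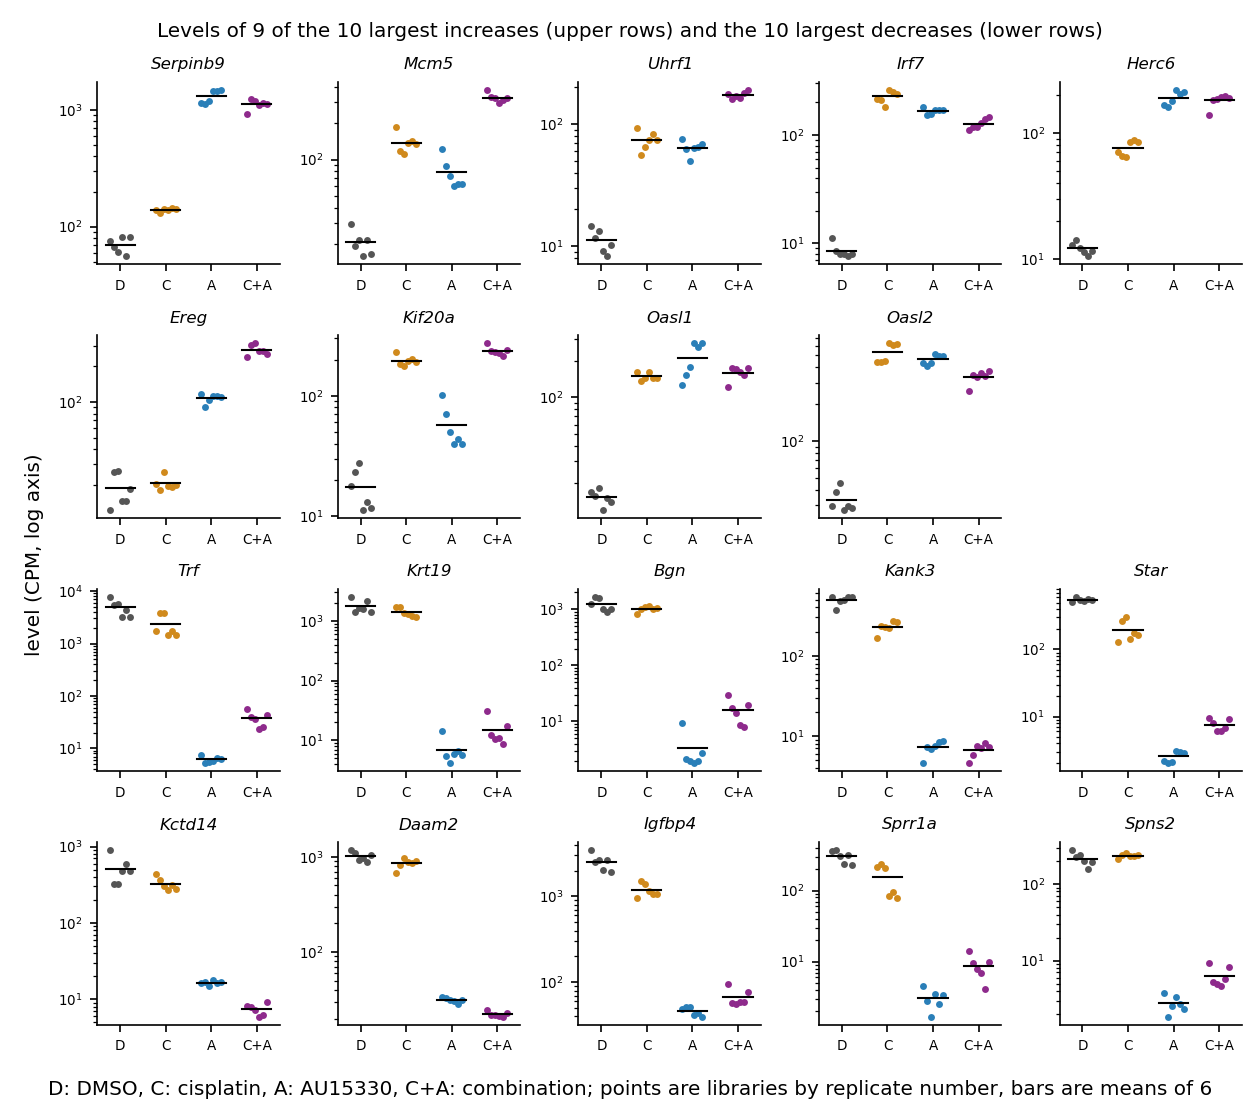
Levels in CPM (log axis) of 9 of the 10 largest increases and the 10 largest decreases among well-expressed genes, 1 panel per gene, with each library as a point and the mean of 6 as a bar, for DMSO (D), cisplatin (C), AU15330 (A) and the combination (C+A). In every panel the 6 combination libraries lie apart from the 6 DMSO libraries, and the 10 genes that fell lie closer to the AU15330 libraries than to the cisplatin libraries.

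In amount of RNA, the largest gains of mean CPM, a measure that long and abundant transcripts lead, were those of Cltc, Hmox1, Vim, Lgals1 and Sema3c. Hmox1, the heme-degrading enzyme, ran from 281 to 393 CPM in DMSO (median 319.9) and from 1646 to 2319 CPM with the combination (median 1868) (log2 fold change 2.58 ± 0.15) and was higher than with cisplatin (by 3.35) and than with AU15330 (by 0.53). Cltc, the clathrin heavy chain, rose by 1.76, the semaphorin Sema3c by 1.59 and Lgals1, galectin-1, by 1.23. Vim, the mesenchymal filament vimentin, rose by 0.62 with overlapping ranges, and the difference was 0.28 in replicates 1 to 3 and 1.02 in replicates 4 to 6. The largest losses were those of Trf and Igfbp4, of Txnip, a thioredoxin inhibitor with medians of 2208 and 91.96 CPM, of Bsg, the surface protein basigin (-2.72), and of Rn45s, the ribosomal RNA precursor (-1.33). Rn45s stood at 18483 CPM in DMSO replicate 1 and at no more than 4588 CPM in the other DMSO libraries. Without that library, left out after its value had been seen, its log2 fold change was -0.63, its difference in mean CPM was -1413 instead of -3836 CPM, and it ranked 11 instead of 2 among the losses, with Hspa5 among the first 5 in its place. Among the gains Spp1, osteopontin, then took rank 5 from Sema3c.

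Some genes went from almost no counts to expression or the reverse. Of the tested genes, 162 had at most 3 counts in every DMSO library, and 124 of them had more than 3 in all 6 combination libraries. These genes passed the filter for low counts only through other groups in which they were expressed. Their low level in DMSO was set by the choice, so the counts and ratios given here describe them and test nothing. Nts, the peptide neurotensin, gave 0 counts in the DMSO libraries together and 6.47 to 18.8 CPM with the combination (median 13.4), at least 84.45-fold higher when 3 counts are allowed in each DMSO library. It was at 0 to 0.0826 CPM with cisplatin and at 5.17 to 20.04 CPM with AU15330. Amelx, the enamel protein amelogenin, gave 0 counts in DMSO and 9.72 to 13.2 CPM with the combination, at least 78.16-fold higher by the same floor, and lay at 3.74 to 7.25 CPM with AU15330. Nr4a3, an orphan nuclear receptor of the immediate early class, reached 8.69 to 14.4 CPM, 291-fold its DMSO level (exact 95% interval of the count ratio 124 to 897, counting error only), and Slc52a3, a riboflavin transporter, 8.78 to 10.8 CPM, 131-fold (68.9 to 288). The combination exceeded AU15330 alone for both. Pcp4, a calmodulin-binding peptide, and Gli1, the transcription factor of Hedgehog signalling, reached 1.95 to 6.19 and 3.35 to 4.50 CPM, with AU15330 values of 5.34 to 18.2 and 3.65 to 11.3 CPM.

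In the other direction 202 genes had at most 3 counts in every combination library. Such genes entered the test through the groups in which they were expressed, so their direction was fixed by the way they were chosen. Fxyd3, a regulator of the sodium pump, went from 27.3 to 79.9 CPM in DMSO (median 35.1) to no more than 0.132 CPM, an 875-fold ratio (402 to 2384). Aqp5, a water channel, went from 18.1 to 41.4 CPM (median 23.8) to no more than 0.139 CPM. Pnliprp1, a lipase-related protein, Mybpc3, a muscle myosin-binding protein, and Htra3, a secreted protease, went from medians of 38.9, 12.96 and 10.8 CPM to at most 3 counts. Ugt1a6a, a glucuronidating enzyme that shares exons with its gene cluster and so could share reads, went from a median of 21.6 CPM to 0.0934 CPM. With AU15330 alone no library exceeded 0.157 CPM for any of these 6 genes, and with cisplatin alone all 6 were expressed, from 7.12 CPM (lowest Ugt1a6a library) to 34.8 CPM (highest Fxyd3 library).

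Lists of genes with known roles, 32 in all and drawn up with earlier results of these data known, were described by counts of called members and by medians. Each count is to be read against all tested genes, of which 36.8% were called higher, 36.5% lower, 14.3% at least 2-fold higher and 15.1% at least 2-fold lower, and a list with shares near these is not set apart by its counts. Interferon-stimulated, antigen-presentation, replication and mitosis lists had medians of 1.90 to 3.38 on the log2 scale, and glycolysis, immediate early and cholesterol lists had medians of -1.90, -1.11 and -0.94. Many others sat near the 0.00 of all genes while their members moved far to both sides.

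**Figure D3:**
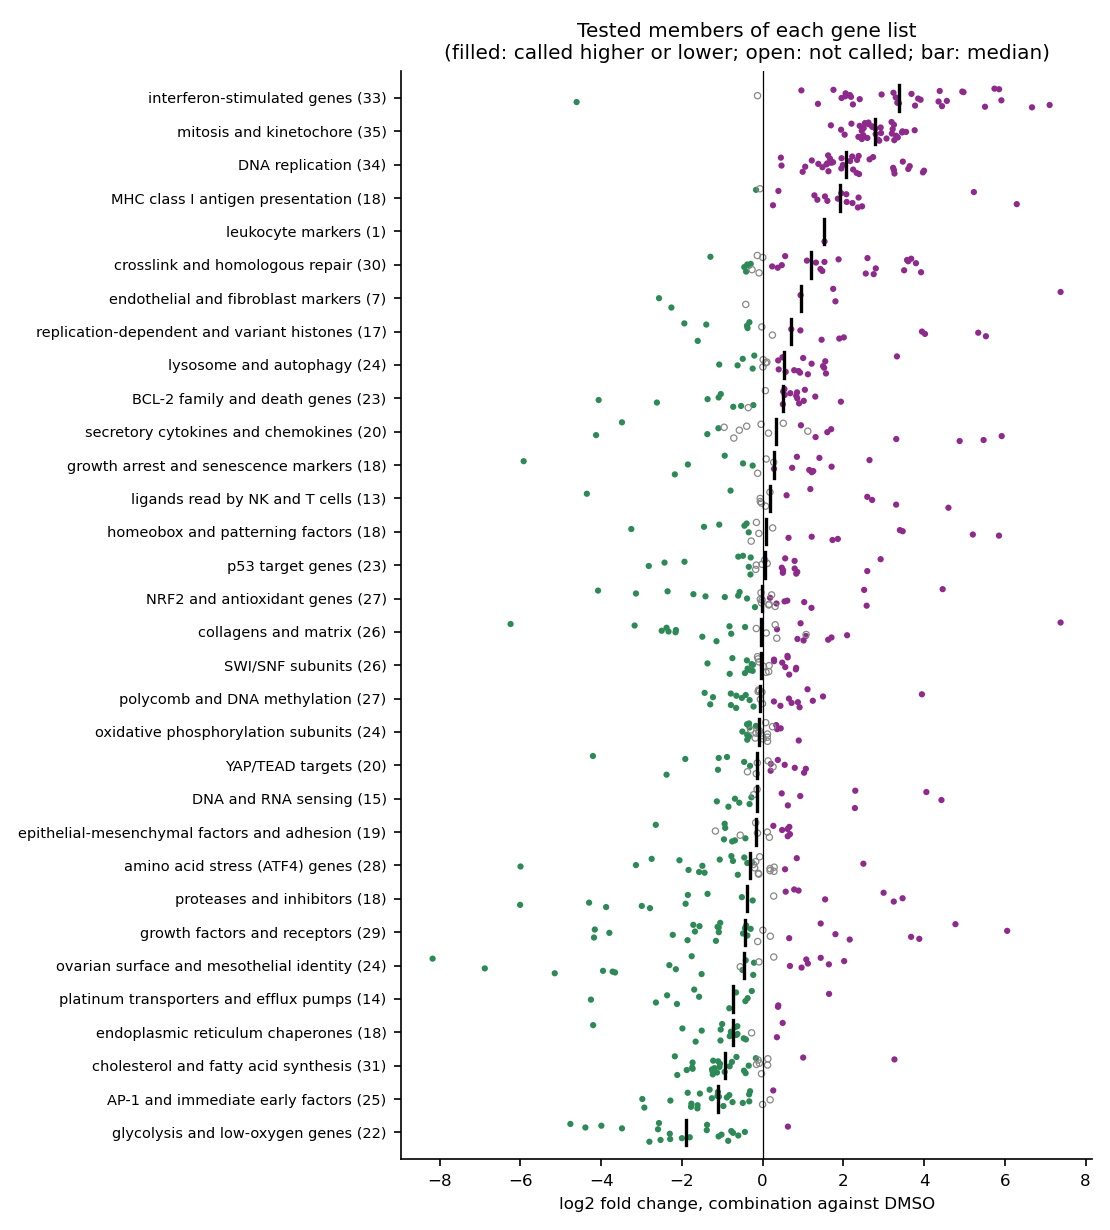
Log2 fold change of the combination over DMSO for the tested members of each list, sorted by the list's median (bar), with called members filled and the others open. The interferon, mitosis, replication and MHC class I lists lie to the right of 0 with few exceptions, the glycolysis list lies to the left, and lists such as NRF2 or p53 targets spread over both sides.

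Interferon-stimulated genes were strongly raised. Of 33 tested members, 31 were called higher, against 36.8% of all tested genes, 30 of them at least 2-fold, against 14.3%. In 31 the 6 combination libraries lay above the 6 DMSO libraries, against 24.9% of all tested genes. The median log2 fold change was 3.38, and it was 3.45 within replicates 1 to 3 and 3.52 within replicates 4 to 6. Isg15, a ubiquitin-like protein attached to targets during infection, ran from 1.59 to 3.77 CPM in DMSO (median 2.35) and from 231 to 287 CPM with the combination (median 256) (log2 fold change 6.67 ± 0.19, edgeR adjusted p = 3.75e-20). Oas1a, which makes the messenger that activates RNase L, ran from 0 to 0.279 CPM in DMSO (median 0.1402) and from 17.9 to 24.96 CPM with the combination (median 21.8), and Usp18, the protease that removes Isg15, ran from 0.145 to 1.18 CPM in DMSO (median 0.596) and from 34.7 to 41.4 CPM with the combination (median 38.1). The sensors Ddx58 (RIG-I) and Ifih1 (MDA5) rose by 2.95 and 2.16, the transcription factors Irf9 and Stat2 by 2.41 and 1.96, and the guanylate-binding protein Gbp2 by 5.86.

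Members of the same list departed widely from cisplatin alone. Against cisplatin 9 members were higher and 19 lower, where 35.4% and 32.7% of all genes were. Oas2 and Oas3, further synthetases of that messenger, reached medians of 1.21 and 0.981 CPM with the combination and averaged 212 ± 88.3 and 119 ± 38.4 CPM with cisplatin. Ifi44 was not called (median 2.85 CPM in DMSO and 2.08 CPM with the combination, overlapping ranges, adjusted p = 0.591) and averaged 139 ± 23.1 CPM with cisplatin. Mx1, an antiviral GTPase, was the member that fell, from a DMSO median of 3.07 CPM to 0.152 CPM, with 17.3 ± 2.37 CPM under cisplatin. Its relative Mx2 rose by 4.36. Against AU15330 alone 11 members were higher and 14 lower, where 22.2% and 19.5% of all genes were, and Isg15 (log2 fold change -0.49) was among the lower ones. The Oas, Ifit and Gbp families contain similar sequences, and shared reads could have been counted on either relative.

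The bases that interferon-activated factors bind were looked up in promoters, read as the 250 bases before and 50 after each gene's start in RefSeq on GRCm38.p6, where 10265 of the 12941 tested genes were matched. The core GAAANNGAA, searched on both strands, was in 16 of the 24 matched interferon-stimulated genes (66.7%) and in 8.57% of all tested genes. It was in 11.9% of the genes called at least 2-fold higher, in 8.65% of those at least 2-fold lower and in 9.76% of all 27025 promoters. The windows of the largest rise and the largest fall among named genes with this core are shown with the core in capitals, since they hold like letters and moved in opposite directions, Oas1a from a DMSO median of 0.1402 CPM to 21.8 CPM and Htra3 from 10.8 CPM to at most 3 counts. The Oas1a stretch (chr5:120907526-120907605, minus strand) has 2 overlapping cores, the nearer one starting 14 bases before the start site, and the Htra3 stretch (chr5:35679940-35680019, minus strand) has 1, at 204 bases.
Oas1a: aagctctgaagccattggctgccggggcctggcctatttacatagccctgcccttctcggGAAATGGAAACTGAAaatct
Htra3: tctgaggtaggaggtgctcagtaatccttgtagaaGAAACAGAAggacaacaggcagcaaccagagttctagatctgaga

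Genes of MHC class I antigen presentation, which displays peptides to T cells, were mostly higher. Of 18 tested members 16 were higher, against 36.8% of all tested genes, and 14 at least 2-fold, against 14.3%, with a median of 1.90 (1.70 in replicates 1 to 3 and 1.99 in replicates 4 to 6). The heavy chains H2-K1 and H2-D1 ran from 56.1 to 103 CPM in DMSO (median 81.2) and from 375 to 444 CPM with the combination (median 409) for the first and rose by 2.36 and 2.46, though reads of these similar genes may be shared. B2m, the light chain of every class I molecule, ran from 177 to 322 CPM in DMSO (median 237) and from 914 to 1358 CPM with the combination (median 1115), and Psmb9, a subunit of the immunoproteasome, rose by 2.38 to a median of 12.1 CPM. The peptide transporter Tap1 and the trimming enzyme Erap1 rose by 2.08 and 1.95. Against cisplatin 13 members were higher and 2 lower, where 35.4% and 32.7% of all tested genes were. Canx, a chaperone of the endoplasmic reticulum, was the member called lower, by 0.16 with overlapping ranges, and it was not called within replicates 1 to 3.

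The list of DNA and RNA sensing genes, which lie upstream, gave counts near those of all genes. It does not hold the RNA sensors Ddx58, Ifih1 and Dhx58, which are in the interferon-stimulated list and rose by 2.95, 2.16 and 3.69. Of 15 tested, 7 were higher and 6 lower, where 36.8% and 36.5% of all tested genes were, 2 were not called, and the median was -0.14 (0.13 in replicates 1 to 3 and -0.01 in replicates 4 to 6). The count of lower genes was 3 with library totals in place of TMM factors and 3 without replicate 5 of every group. Cgas, which detects cytosolic DNA, ran from 3.65 to 5.12 CPM in DMSO (median 4.71) and from 20.8 to 24.8 CPM with the combination (median 22.6) (log2 fold change 2.29 ± 0.12) and exceeded both single drugs, by 0.80 over cisplatin and 1.32 over AU15330. Sting1, its adaptor, ran from 30.1 to 35.2 CPM in DMSO (median 32.5) and from 16.2 to 22.9 CPM with the combination (median 17.1), with a log2 fold change of -0.85, which put it between AU15330 alone (5.91 ± 0.8096 CPM) and cisplatin alone (49.8 ± 4.41 CPM). Tlr3 and the antibody receptor Trim21 rose by 4.06 and 2.295, while Mavs, the adaptor of the RNA sensors, and Irf3, the factor that they activate, fell by 1.13 and 0.58.

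Secreted cytokines and chemokines went both ways. Of 20 tested members 8 were higher and 4 lower, where 36.8% and 36.5% of all tested genes were, with a median of 0.33. Within replicates 1 to 3 there were 8 higher and 4 lower (median 0.96), and within replicates 4 to 6 there were 9 higher and 7 lower (median 0.18). Ccl5, which attracts T and NK cells, ran from 1.18 to 2.100 CPM in DMSO (median 1.43) and from 45.9 to 101 CPM with the combination (median 65.5) (log2 fold change 5.47 ± 0.21, edgeR adjusted p = 9.08e-18), above cisplatin (30.1 ± 3.43 CPM) and AU15330 (5.77 ± 1.37 CPM) alone. Cxcl10, an interferon-induced attractant of the same cells, ran from 0.186 to 1.07 CPM in DMSO (median 0.496) and from 21.4 to 62.7 CPM with the combination (median 32.03), and Ccl2, which attracts monocytes, rose by 4.88 to a median of 9.32 CPM. These chemokines did not pass the test against cisplatin alone (Cxcl10 log2 fold change -0.32, adjusted p = 0.231, and Ccl2 0.20, adjusted p = 0.457). Csf1, the growth factor of macrophages, rose by 1.602. Cxcl12, a retention signal for leukocytes, ran from 499.9 to 781 CPM in DMSO (median 554) and from 21.9 to 53.3 CPM with the combination (median 32.7), with a log2 fold change of -4.13, and averaged 30.9 ± 13.8 CPM with AU15330 alone. Vegfa, the angiogenic factor, fell by 3.49 and Cxcl16 by 1.37. Il6 never passed 4 counts in a combination library, 0 counts in a DMSO library or 3 counts in a cisplatin library, and together with Il1a, Il1b, Cxcl2, Tnf and 5 other members it was too low to be tested.

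Ligands that NK and T cells read gave 6 of 13 tested higher, 2 lower and 5 not called (median 0.18). Of all tested genes 36.8% were higher and 36.5% lower. Ulbp1 and Raet1d, stress ligands of the NK receptor NKG2D with related sequences, rose to medians of 6.56 and 1.09 CPM from 0.687 and 0.0244 CPM. Cd274, the checkpoint ligand PD-L1, ran from 1.59 to 3.999 CPM in DMSO (median 2.56) and from 13.9 to 20.3 CPM with the combination (median 18.8) (log2 fold change 2.71 ± 0.18), and the death receptor Tnfrsf10b rose by 1.18. Cd47, a signal that restrains phagocytes, rose by 0.59. Cd55, which shields cells from complement, ran from 185 to 378 CPM in DMSO (median 308) and from 13.9 to 15.6 CPM with the combination (median 14.2), with a log2 fold change of -4.36. Pvr and Nectin2, ligands of DNAM-1, had log2 fold changes of -0.03 and -0.06 with overlapping ranges and adjusted p of 0.761 and 0.673.

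Every tested gene of DNA replication (34 of 34) and of mitosis (35 of 35) was higher in combination-treated cells than in DMSO-treated cells, against 36.8% of all tested genes, 31 and 35 of them at least 2-fold, against 14.3%. The medians were 2.08 and 2.80. The 6 combination libraries stood above all DMSO libraries for 32 and 35 genes, against 24.9% of all tested genes. Mcm10, which helps start the replicative helicase, ran from 3.897 to 5.89 CPM in DMSO (median 4.698) and from 64.00 to 92.8 CPM with the combination (median 76.3) (log2 fold change 3.999 ± 0.17), Pole, the leading-strand polymerase, rose by 3.47, and Orc1, of the origin complex, by 3.64. Knl1 and Nuf2, which tie kinetochores to microtubules, rose by 3.46 and 3.55, to medians of 92.2 and 53.6 CPM. The cyclin Ccnb1 rose by 3.26, the kinase Plk1 by 2.49 and the topoisomerase Top2a by 2.795. Mki67, a marker of cycling cells, ran from 30.2 to 83.2 CPM in DMSO (median 40.05) and from 272 to 379 CPM with the combination (median 304) (log2 fold change 2.65 ± 0.24, edgeR adjusted p = 1.61e-10). Mitosis genes had medians of 2.44 in replicates 1 to 3 and 3.10 in replicates 4 to 6, and in each set 35 of 35 remained higher.

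The single drugs gave other amounts for these genes. Replication genes had a median of 1.55 with cisplatin and 0.97 with AU15330 over the same DMSO libraries, and in the direct tests 24 of 34 were higher with the combination than with cisplatin and 34 of 34 higher than with AU15330, against 35.4% and 22.2% of all tested genes. Mitosis genes had a median of 2.65 with cisplatin and 1.04 with AU15330, and 34 of 35 were higher in the combination than with AU15330 but 8 of 35 higher and 1 lower than with cisplatin. Mki67 did not separate the combination from cisplatin (-0.07, adjusted p = 0.789) and was higher by 1.697 on the log2 scale than with AU15330.

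The E2F core GCGGGAA, bound by the factors that drive replication genes, was in 12 of 28 matched replication promoters (42.9%), in 9.89% of tested genes and in 5.29% of all promoters, again searched on both strands. Among matched mitosis promoters the core was in 1 of 28 (3.57%). It was in 13.2% of genes at least 2-fold higher and in 7.09% of those at least 2-fold lower. The stretches shown, with the core in capitals, are from the promoters of Uhrf1, where it lies on the other strand and starts 48 bases before the gene (chr17:56303253-56303332, plus strand), and of Fosb, at 103 bases (chr7:19310105-19310184, minus strand), the named genes with the largest rise and fall among holders of this core.
Uhrf1: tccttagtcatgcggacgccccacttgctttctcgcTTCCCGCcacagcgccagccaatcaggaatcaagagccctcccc
Fosb: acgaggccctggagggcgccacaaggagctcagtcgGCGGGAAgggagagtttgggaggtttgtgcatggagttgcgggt

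Genes that repair crosslinks and broken DNA were more often higher than lower. Of 30 tested, 20 were higher, against 36.8% of all tested genes, 16 of them at least 2-fold, against 14.3%, while 6 were lower and 4 not called, with a median of 1.21. Fancd2, the Fanconi protein that is ubiquitinated at crosslinks, ran from 2.28 to 3.96 CPM in DMSO (median 2.701) and from 42.9 to 47.9 CPM with the combination (median 45.2) (log2 fold change 3.93 ± 0.19), Brca1 ran from 5.598 to 8.29 CPM in DMSO (median 7.24) and from 92.4 to 105 CPM with the combination (median 97.8) and the resection nuclease Exo1 rose by 3.68. All 3 exceeded both single drugs, Brca1 by 0.77 over cisplatin and 1.67 over AU15330. Rev3l, the catalytic subunit of the polymerase that copies across crosslinks, fell from a DMSO median of 119.8 CPM to 54.5 CPM, by 1.29. Ercc1, part of the nuclease that unhooks crosslinks, and Fance fell by 0.45 and 0.41.

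Of 18 tested markers of growth arrest and senescence, 9 were higher and 6 lower, where 36.8% and 36.5% of all tested genes were (median 0.28). Cdkn1a, the cyclin-dependent kinase inhibitor p21, ran from 38.3 to 83.97 CPM in DMSO (median 55.1) and from 11.2 to 14.4 CPM with the combination (median 12.8), with a log2 fold change of -2.18 ± 0.18 (edgeR adjusted p = 5.73e-11). AU15330 alone gave less (3.74 ± 1.06 CPM) and cisplatin alone more (20.3 ± 4.93 CPM). Gdf15, a stress-induced cytokine, fell from a median of 11.7 CPM to 0.177 CPM. Lmnb1, a lamina protein known to be lost in senescent cells, ran from 32.7 to 36.9 CPM in DMSO (median 34.4) and from 69.9 to 92.2 CPM with the combination (median 73.8), a rise of 1.15, and the chromatin protein Hmgb2 rose by 1.71. Ccnd2, a cyclin of early G1, ran from 321 to 553 CPM in DMSO (median 361) and from 907 to 1189 CPM with the combination (median 1135), while Ccnd1 gave 0.09 (adjusted p = 0.561). Cdkn2a and Cdkn2b, which encode p16 and p15, had 0 counts in all 24 libraries.

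Target genes of p53, the factor whose gene was knocked out in these cells, were near the middle of all genes (10 of 23 higher, 8 lower, median 0.05, with 0.22 in replicates 1 to 3 and -0.11 in replicates 4 to 6). Of all tested genes 36.8% were higher and 36.5% lower. Mdm2, the p53 ligase, fell by 0.30 with overlapping ranges (63.3, 77.4 and 82.7 CPM in DMSO (lowest, median and highest) and 59.1, 61.8 and 64.9 CPM with the combination). Ccng1 rose by 0.83 and the death effector Bbc3 by 0.86. Gtse1, listed as a p53 target and expressed in dividing cells, rose by 2.92. Trp53inp1, the antiproliferative Btg2 and the junction protein Perp fell by 2.82, 2.43 and 1.94, and each was lower than with cisplatin alone and not called against AU15330 alone.

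Transcripts of the SWI/SNF complex itself changed by small amounts in both directions. Smarca4 ran from 218 to 265 CPM in DMSO (median 250.1) and from 373 to 397 CPM with the combination (median 387) (log2 fold change 0.66 ± 0.055, edgeR adjusted p = 5.20e-11) and Smarca2 ran from 370.4 to 481 CPM in DMSO (median 445) and from 200.4 to 273 CPM with the combination (median 256) (log2 fold change -0.82). The drug acts on the proteins, so these values do not check the treatment label. Smarca4 averaged 387 ± 10.7 CPM with AU15330 alone, and the combination was not called against it (adjusted p = 0.963). Of 26 tested subunits 9 were higher, none of these by 2-fold, and 10 were lower, near the 36.8% and 36.5% of all tested genes, with a median of -0.04. Arid1a, which targets the complex to DNA, rose by 0.83 and Smarcd3 by 0.82, and Phf10, of the polybromo form, ran from 114 to 168 CPM in DMSO (median 164) and from 53.96 to 67.4 CPM with the combination (median 60.6) (log2 fold change -1.37).

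The list of Polycomb, which acts against SWI/SNF at many loci, and DNA methylation genes had a median of -0.08. Of 27 tested 10 were higher and 11 lower, near the 36.8% and 36.5% of all tested genes. Uhrf1 and Dnmt1, the pair that copies methylation in S phase, rose by 3.95 and 1.5, and Bmi1, a subunit of Polycomb complex 1, ran from 52.2 to 70.8 CPM in DMSO (median 61.02) and from 134 to 159 CPM with the combination (median 142). Cbx2, a Polycomb reader, and the demethylating enzymes Tet3 and Kdm6b fell by 1.30, 1.44 and 1.23. Homeobox genes, classical Polycomb targets, included large gains from near nothing. Hoxc8 ran from 0.0465 to 0.495 CPM in DMSO (median 0.103) and from 8.05 to 12 CPM with the combination (median 11.2) and Hoxc10 ran from 0.134 to 0.866 CPM in DMSO (median 0.242) and from 8.69 to 12.4 CPM with the combination (median 11.9). Dlx1 ran from 2.96 to 5.88 CPM in DMSO (median 4.46) and from 40.9 to 54.3 CPM with the combination (median 50.3). With cisplatin they stayed low (0.117 ± 0.0736, 0.781 ± 0.169 and 2.75 ± 0.294 CPM), and with AU15330 they were high (12.2 ± 0.981, 8.89 ± 1.58 and 82.4 ± 2.76 CPM). Dlx3 and Meis1 fell by 3.25 and 1.45. Over the homeobox list 8 of 18 were higher and 6 lower, where 36.8% and 36.5% of all tested genes were. The list median was 0.08, with -0.17 in replicates 1 to 3 and 0.06 in replicates 4 to 6.

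Histone genes were read here from polyadenylated RNA, although most replication-dependent histone transcripts lack a poly(A) tail. Of 17 tested 9 were higher and 6 lower, where 36.8% and 36.5% of all tested genes were, with a median of 0.71. H4c8 rose from 0.0483 to 0.485 CPM to 9.65 to 17.1 CPM and H2bc4 rose by 1.898. The variant H2az1 rose by 0.94. The replacement histones H1f0 and H3f3b, made outside S phase, ran from 527 to 838 CPM in DMSO (median 648) and from 154 to 189.9 CPM with the combination (median 179) for the first and fell by 1.94 and 1.40, and H1f2 fell by 1.61. Many histone genes are near copies of each other.

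Genes of ovarian surface and mesothelial identity lost several members almost entirely. Amhr2, the receptor of anti-Müllerian hormone, ran from 142 to 440.4 CPM in DMSO (median 382) and from 0.702 to 1.39 CPM with the combination (median 1.09) (log2 fold change -8.18 ± 0.31, edgeR adjusted p = 7.61e-18), and Upk3b, a mesothelial uroplakin, ran from 13.9 to 63.5 CPM in DMSO (median 58.1) and from 0.288 to 2.42 CPM with the combination (median 1.01). Cisplatin alone left both high (318 ± 36.3 and 197 ± 20.8 CPM) and AU15330 alone left both low (1.09 ± 0.397 and 0.494 ± 0.291 CPM). Krt18 fell by 2.15, Krt8 by 0.50 and Msln, mesothelin, by 1.51, while Wt1, the lineage factor, ran from 794 to 916 CPM in DMSO (median 836) and from 683 to 779 CPM with the combination (median 714), with a log2 fold change of -0.23. Nr2f1, a nuclear receptor, rose by 2.02, Inhba, a subunit of activin, by 1.44 and the mesothelial factor Tbx18 by 1.12. Of 24 tested members, 14 were lower, against 36.5% of all tested genes, 10 at least 2-fold, against 15.1%, and 7 higher, with a median of -0.46. Epithelial-mesenchymal factors and adhesion genes showed smaller changes. Of 19 tested 6 were higher (3 within replicates 1 to 3) and 7 lower, where 36.8% and 36.5% of all tested genes were (median -0.17). The widest change was that of integrin Itgb3, from 111 to 157 CPM in DMSO (median 125) and from 15.9 to 25.6 CPM with the combination (median 21.4) (log2 fold change -2.65). Cdh2, N-cadherin, and Itgav rose by 0.68 and 0.66, and Twist2 fell by 0.96.

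Matrix genes and proteases diverged within their lists. Of 26 tested matrix genes 9 were higher and 12 lower (median -0.03), where 36.8% and 36.5% of all tested genes were. The median changed sign between the sets, with 7 higher and 11 lower (median -0.32) in replicates 1 to 3 and 12 higher and 11 lower (median 0.21) in replicates 4 to 6. Col4a1, of the basement membrane, ran from 114 to 209 CPM in DMSO (median 119.8) and from 325 to 632 CPM with the combination (median 412) (log2 fold change 1.62 ± 0.26) and Col3a1, a fibrillar collagen, rose by 1.01 with overlapping ranges. The crosslinking enzyme Loxl2 fell by 2.50 and Ccn1, a matricellular protein, ran from 186 to 442 CPM in DMSO (median 255) and from 45.96 to 73.6 CPM with the combination (median 52.2). Of 18 tested proteases and inhibitors 7 were higher and 10 lower (median -0.38). The collagenase Mmp13 ran from 7.48 to 75.7 CPM in DMSO (median 44.2) and from 0.409 to 1.14 CPM with the combination (median 0.6249), and Mmp19 and Mmp10 fell by 4.30 and 3.88. Timp1, an inhibitor of these metalloproteases, ran from 24.6 to 56.7 CPM in DMSO (median 38.1) and from 332 to 414 CPM with the combination (median 374), above both cisplatin (30.2 ± 7.69 CPM) and AU15330 (216 ± 19.1 CPM). Plau, urokinase, ran from 2.06 to 3.59 CPM in DMSO (median 3.02) and from 23.1 to 42.3 CPM with the combination (median 34.1) and was likewise above both (12.8 ± 0.667 and 2.68 ± 0.522 CPM), and Adamts1 rose by 2.997. Dcn, a fibroblast marker as well as a matrix gene, rose by 0.94.

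Immediate early factors fell almost as a set. Of 25 tested AP-1 and immediate early genes 22 were lower, against 36.5% of all tested genes, and 1 was higher. Of the lower ones 14 fell at least 2-fold, against 15.1% of all tested genes. The list median was -1.11 (-1.17 in replicates 1 to 3 and -1.14 in replicates 4 to 6). Fosb ran from 112 to 465 CPM in DMSO (median 192) and from 19.8 to 49.8 CPM with the combination (median 28.2) (log2 fold change -2.93 ± 0.37, edgeR adjusted p = 7.85e-08) and Egr1, a factor induced by growth signals, ran from 559 to 1033 CPM in DMSO (median 813) and from 112 to 220.4 CPM with the combination (median 157). Jun and Jund, partners of Fos in AP-1, fell by 1.61 and 1.77. Dusp4, a phosphatase that damps ERK signalling, fell by 1.86, and Spry2, an inhibitor of the same signalling, was the member that rose, by 0.26 with overlapping ranges. Against cisplatin alone 20 of the 25 were lower and 3 higher, where 32.7% and 35.4% of all tested genes were. Targets of YAP and TEAD, which read cell shape and density, gave counts near those of all genes (7 of 20 higher, 4 within replicates 1 to 3, 8 lower, median -0.14). Ankrd1, a common readout of the pathway, rose by 1.03 with overlapping ranges and Lats2 by 1.07, while Ccn1, Nuak2 and Axl fell by 2.38, 1.92 and 1.11.

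The AP-1 site TGANTCA was in 0 of 18 matched promoters of the immediate early list, in 6.41% of tested genes, in 6.24% of genes at least 2-fold higher and in 10.7% of genes at least 2-fold lower. All promoters of the table held it in 8.97% of cases. Among named genes the holders with the largest rise and fall were Nts, at 207 bases (chr10:102490582-102490661, minus strand), and Ugt1a6a, at 124 bases (chr1:88134649-88134728, plus strand), shown with the site in capitals because they went on and off with the same site in the window.
Nts: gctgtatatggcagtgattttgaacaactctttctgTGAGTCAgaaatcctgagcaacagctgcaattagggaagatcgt
Ugt1a6a: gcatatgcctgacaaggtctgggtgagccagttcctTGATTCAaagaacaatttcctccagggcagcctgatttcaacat
The TEAD letters GGAATG were in 11 of 15 matched YAP/TEAD targets (73.3%), in 14.4% of tested genes, and in 16.1% and 15.7% of genes at least 2-fold higher and lower. The ATF4 letters TGATGNAA were in 9 of 22 matched ATF4 genes (40.9%) and 2.69% of tested genes, and the NRF2 letters TGACNNNGC, which can overlap an AP-1 site, in 9 of 23 matched NRF2 genes (39.1%) and 17% of tested genes. The SREBP letters TCACNCCAC, searched for the factor of sterol synthesis, were in 1 of 22 matched cholesterol and fatty acid genes (4.55%) and 1.35% of tested genes. A match is a run of letters and not a measured binding site.

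Glycolysis and low-oxygen genes were nearly all lower. Of 22 tested 21 were lower, against 36.5% of all tested genes, 16 of them at least 2-fold, against 15.1%, and 1 was higher, with a median of -1.90. Ndrg1, induced when oxygen is short, ran from 367 to 798 CPM in DMSO (median 559) and from 15.2 to 26.8 CPM with the combination (median 21.8) (log2 fold change -4.76 ± 0.23, edgeR adjusted p = 7.42e-16), and Egln3, an oxygen-sensing hydroxylase, ran from 216 to 418 CPM in DMSO (median 287) and from 10.9 to 16.6 CPM with the combination (median 14.4). The glucose carrier Slc2a1 and the first enzyme of the pathway, Hk2, fell by 2.81 and 2.53. The size of the fall depended on the replicate set used in every group. The list median was -2.19 in replicates 1 to 3 (21 lower, 0 higher) and -1.29 in replicates 4 to 6 (17 lower, 1 higher). Gapdh, an enzyme often taken as a constant reference and a gene with many processed copies, was at 2916 to 4676 CPM in DMSO replicates 1 to 3 and at 1075 to 1213 CPM in replicates 4 to 6, against 1103 to 1252 CPM in all 6 combination libraries. Its log2 fold change was -1.68 in the first set and 0.03 in the second. Ndrg1 and Egln3 fell in both sets, with log2 fold changes of -4.94 and -4.603 for Ndrg1 and of -4.76 and -4.05 for Egln3. The cause of the difference between the DMSO sets was not tested.

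Amino acid stress genes, driven by ATF4, also depended on the replicate set. In all libraries 15 of 28 were lower, against 36.5% of all tested genes, and 3 higher, against 36.8% (median -0.32). In replicates 1 to 3 the counts were 10 lower and 8 higher (median -0.15), and in replicates 4 to 6 they were 23 lower and 2 higher (median -0.66). Asns, which makes asparagine, had a log2 fold change of 0.66 in the first set and -0.32 in the second, both called. Aldh1l2, a mitochondrial folate enzyme, fell in both (33.5, 132 and 185 CPM in DMSO (lowest, median and highest) and 1.49, 1.88 and 2.63 CPM with the combination over all libraries), as did Slc7a11, the cystine carrier (26.8, 181 and 259.6 CPM in DMSO (lowest, median and highest) and 11.2, 17.1 and 26.1 CPM with the combination), and Nupr1. Aars, an aminoacyl-tRNA synthetase, rose by 0.85, with 0.95 and 0.66 in the sets. Chaperones of the endoplasmic reticulum were lower in 15 of 18 cases, against 36.5% of all tested genes, and higher in 2 (median -0.74, with -0.50 and -1.04 in the sets). Ero1l, which oxidises disulfide bonds, ran from 445 to 1709.8 CPM in DMSO (median 561) and from 44.7 to 55.8 CPM with the combination (median 46.5), and Xbp1, the factor of the unfolded protein response, ran from 209 to 304 CPM in DMSO (median 246) and from 60.2 to 67.4 CPM with the combination (median 63.6). Hspa5, the main chaperone there, had overlapping ranges (814, 2752 and 3809.8 CPM in DMSO (lowest, median and highest) and 772, 807 and 858 CPM with the combination) and fell by 1.66.

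Cholesterol and fatty acid genes were lower in 23 of 31 cases, against 36.5% of all tested genes, 15 at least 2-fold, against 15.1%, and higher in 2 (median -0.94). The median was -1.37 in replicates 1 to 3 and -0.48 in replicates 4 to 6. Hmgcs1, at the entry to the mevalonate pathway, ran from 708 to 1240.5 CPM in DMSO (median 911) and from 190.4 to 249 CPM with the combination (median 211) (log2 fold change -2.12 ± 0.14), and Sqle, which commits squalene to sterols, fell by 1.88. Elovl6, a fatty acid elongase, fell by 2.18. Acacb, which makes the malonyl-CoA that limits fat burning, ran from 8.74 to 12.3 CPM in DMSO (median 9.99) and from 74.1 to 114 CPM with the combination (median 96.6) and Scd1, a desaturase, rose by 1.004 with overlapping ranges, 0.32 in the first set and 1.64 in the second.

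**Figure D4:**
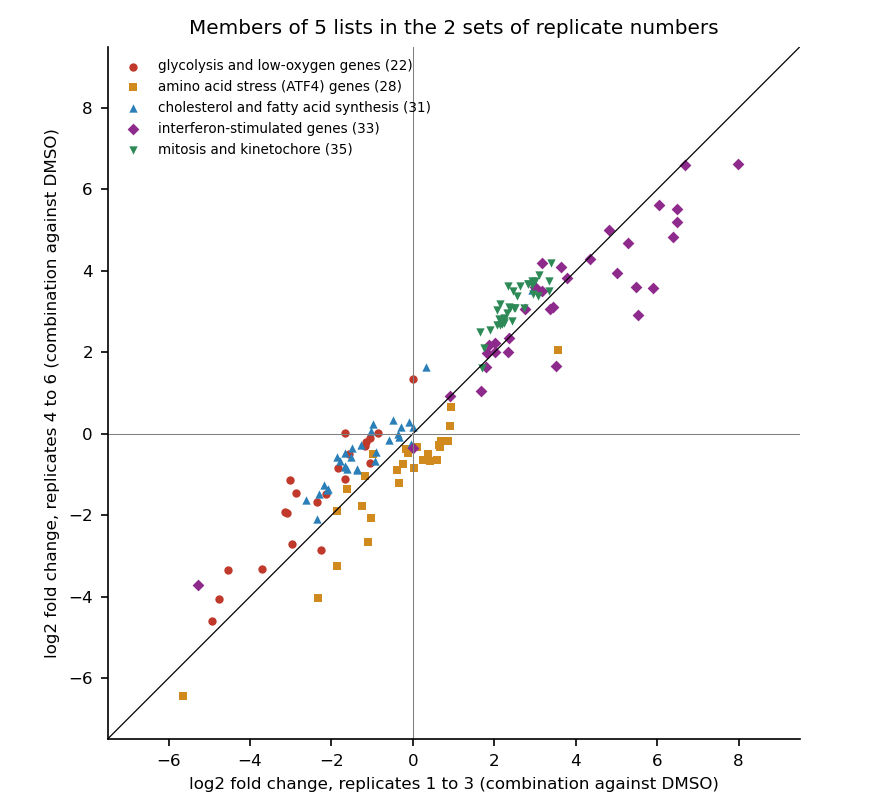
Log2 fold change of the combination over DMSO within replicates 1 to 3 (horizontal axis) and within replicates 4 to 6 (vertical axis) for the tested members of 5 lists, glycolysis (22), ATF4 genes (28), cholesterol and fatty acid synthesis (31), interferon-stimulated genes (33) and mitosis (35), with the line of equal values. Interferon-stimulated and mitosis genes lie up and to the right in both sets, glycolysis and cholesterol genes lie above the line with the smaller decreases in replicates 4 to 6, and ATF4 genes lie mostly under it.

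Antioxidant genes of the NRF2 list gave counts near those of all genes (9 of 27 higher, 10 lower, median -0.01, with -0.16 in replicates 1 to 3 and 0.03 in replicates 4 to 6). Besides Hmox1, the metallothioneins Mt1 and Mt2, which bind metals and share sequence, rose by 2.51 and 4.46. Mt1 ran from 39.5 to 103 CPM in DMSO (median 60.9) and from 314 to 485 CPM with the combination (median 388), well above cisplatin alone (56.6 ± 19.6 CPM). Nfe2l2, which encodes NRF2 itself, rose by 1.21. The glutathione transferases Gstm1 and Gsta4 ran from 45.1 to 117 CPM in DMSO (median 60.1) and from 2.68 to 4.55 CPM with the combination (median 4.104) for the first and fell by 4.08 and 2.36. Subunits of oxidative phosphorylation gave 4 of 24 higher and 8 lower, against 36.8% and 36.5% of all tested genes. Among these subunits 12 were not called, none changed by 2-fold and the median was -0.09 (Ndufa4 rose by 0.89 and Uqcrfs1 fell by 0.50). Their balance turned with library totals (7 higher and 4 lower) and without DMSO replicate 1 (7 higher and 5 lower), and with a replicate number left out of every group the lower genes numbered 13 without replicate 1, 4 without replicate 3 and 5 without replicate 5. Of 24 tested lysosome and autophagy genes 15 were higher and 5 lower, where 36.8% and 36.5% of all tested genes were (median 0.53), and 3 were lower with library totals. Lamp2, of the lysosomal membrane, ran from 291 to 422 CPM in DMSO (median 400.2) and from 910.0 to 1266 CPM with the combination (median 1146) (log2 fold change 1.57 ± 0.10) and the calcium channel Mcoln1 rose by 1.55. Npc2, a sterol carrier of the lysosome, fell by 1.08.

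Growth factors and receptors were lower in 18 of 29 cases and higher in 8, where 36.5% and 36.8% of all tested genes were (median -0.44). Ligands of the EGF receptor went in opposite directions. Areg, amphiregulin, ran from 4.64 to 10.4 CPM in DMSO (median 8.65) and from 34.9 to 39.3 CPM with the combination (median 36.8) and rose with Ereg. Tgfa ran from 113 to 161 CPM in DMSO (median 126) and from 6.04 to 8.51 CPM with the combination (median 7.52) (log2 fold change -4.18 ± 0.13, edgeR adjusted p = 2.13e-19), and Pdgfb, a ligand of another receptor family, fell by 3.80. The receptors Erbb3, Igf1r and Tgfbr1 fell by 1.86, 1.68 and 1.57, while Egfr had overlapping ranges and was not called (-0.12, adjusted p = 0.44).

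Transporters of platinum and efflux pumps were lower in 11 of 14 cases and higher in 3, where 36.5% and 36.8% of all tested genes were (median -0.74). Slc31a1, the copper carrier CTR1 through which cisplatin can enter, ran from 90.1 to 119 CPM in DMSO (median 103) and from 56.4 to 61.4 CPM with the combination (median 57.7) (log2 fold change -0.83), and Lrrc8d, a subunit of the anion channel that also passes cisplatin, ran from 101 to 147 CPM in DMSO (median 125) and from 35.9 to 43.1 CPM with the combination (median 38.5) (log2 fold change -1.696). The efflux pumps Abcc3 and Abcc5 fell by 4.25 and 1.57, whereas Abcb1b, a mouse P-glycoprotein, rose by 1.65 to a median of 9.81 CPM. Slc31a1 was lower with the combination than with cisplatin (-0.30, adjusted p = 0.000326) and higher than with AU15330 (0.31, adjusted p = 0.00063).

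Death genes of the BCL-2 and caspase families were higher in 13 of 23 cases and lower in 8, where 36.8% and 36.5% of all tested genes were (median 0.51). Bid, which links death receptors to mitochondria, ran from 14.9 to 24.2 CPM in DMSO (median 19.1) and from 64.7 to 81.4 CPM with the combination (median 72.9), and Birc2, an inhibitor of apoptosis, rose by 1.05. Bmf, a sensor that frees the mitochondrial pathway, ran from 247 to 299 CPM in DMSO (median 274) and from 10.3 to 19.8 CPM with the combination (median 16.96) (log2 fold change -4.06 ± 0.17, edgeR adjusted p = 2.48e-17), and Bok and Bcl2l11 fell by 2.62 and 1.36. Bmf was lower than with cisplatin (112 ± 22.3 CPM) and than with AU15330 (36.8 ± 7.54 CPM).

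The 3 drug groups were read against the same DMSO libraries, so their differences from DMSO are set side by side and not compared with each other, and the combination was tested directly against each drug. Interferon-stimulated genes had medians of 4.45 with cisplatin, 3.32 with AU15330 and 3.38 with both. For MHC class I the medians were 0.96, 2.04 and 1.90. Immediate early genes had medians of -0.35, -1.33 and -1.11, and ovarian identity genes 0.38, -1.01 and -0.46. Cytokines and chemokines had 2.07, -0.73 and 0.33. In the direct tests 5 of 20 were higher and 11 lower than with cisplatin, against 35.4% and 32.7% of all tested genes. Against AU15330 10 were higher and 2 lower, where 22.2% and 19.5% of all tested genes were. Repair genes had 0.52, 0.32 and 1.21, with 19 of 30 above cisplatin and 19 of 30 above AU15330, against 35.4% and 22.2% of all tested genes.

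**Figure D5:**
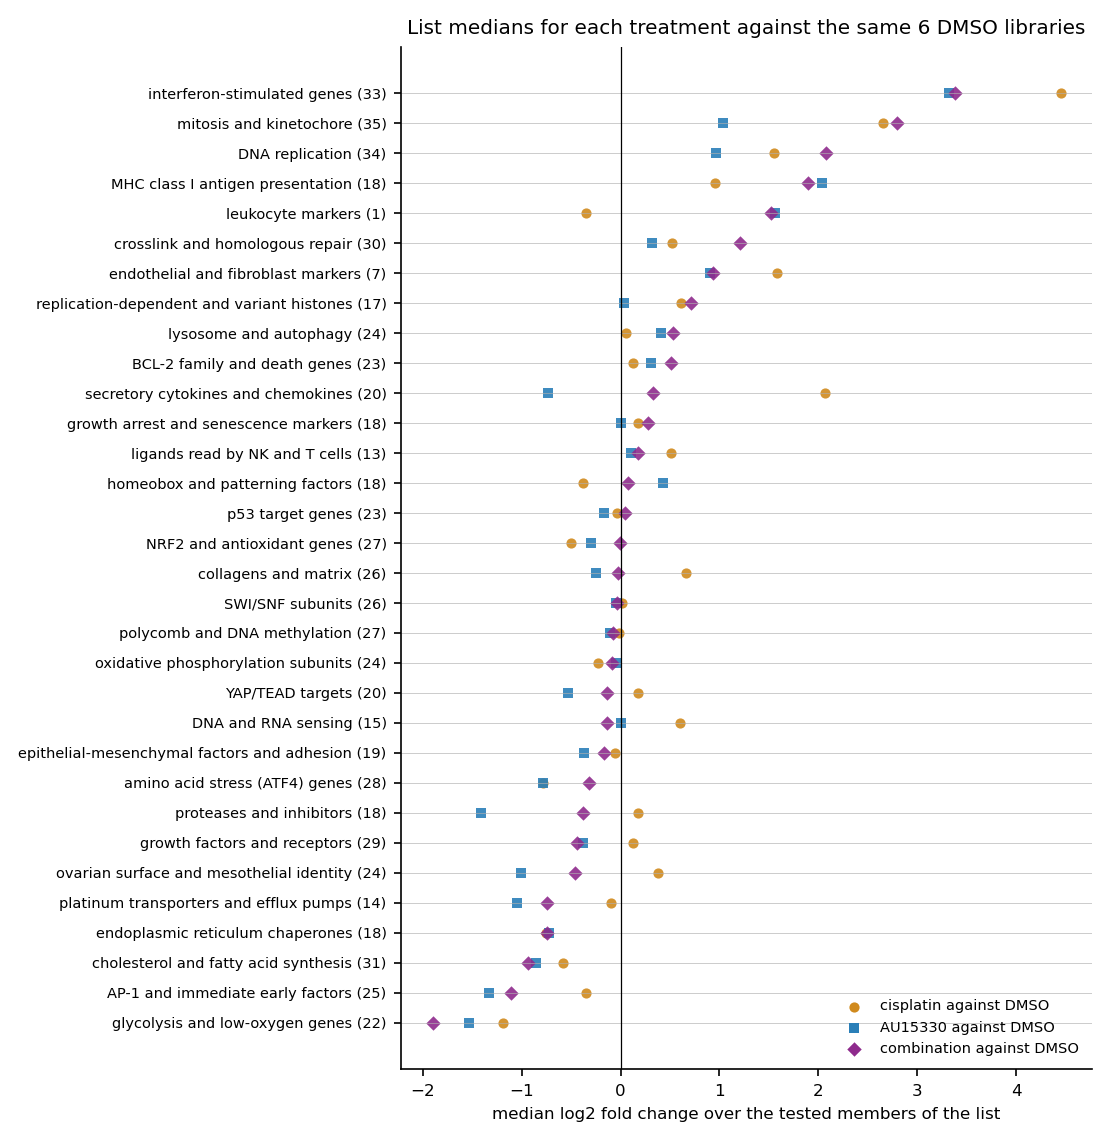
Median log2 fold change over DMSO of the tested members of each of the 32 lists, with cisplatin, AU15330 and the combination as separate points on 1 row per list. All 3 values share the 6 DMSO libraries, so they are set side by side as a description, for instance 1.55, 0.97 and 2.08 for replication and 2.65, 1.04 and 2.80 for mitosis, and in the direct test 8 of 35 mitosis genes were higher with the combination than with cisplatin.

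Over all genes the combination differed from cisplatin alone at 4579 genes upward (35.4%) and 4234 downward (32.7%) and from AU15330 alone at 2873 upward (22.2%) and 2521 downward (19.5%). Restricted to replicates 1 to 3, the counts against AU15330 were 1483 and 1334. The AU15330 library closest to the combination was replicate 1, and without it, left out after the libraries had been seen, the counts against AU15330 were 2898 and 2600.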

How the data were processed

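Polyadenylated RNA was sequenced from 24 libraries (4 groups of 6) on 2 lanes each, and the authors deposited raw counts per gene and lane. Per the labels, the tools include STAR 2.7.1a and DESeq2 1.36.0 with the mm10 build. The counting tool, its strand setting and the annotation are not given in the sources used here, so reads of antisense or near-identical genes cannot be told apart. The 48 lane columns, of which 0 were left unmapped, were summed per library, and groups were taken from the treatment labels.

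Totals were 17592588 to 23096222 counts in the libraries compared. Genes were filtered with filterByExpr (12941 of 25229 kept, with 4801 at 0 counts in every library), scaled with TMM factors and tested with the quasi-likelihood F test of edgeR 4.0.16 (R 4.3.3) in 1 fit of 4 group means over 24 libraries (20 residual degrees of freedom), with Benjamini-Hochberg adjustment over all tested genes at 0.05. Log2 CPM used a prior count of 2. Standard errors were the fold change divided by the square root of F. Ratios of genes with at most 3 counts per library in 1 group carry exact 95% Clopper-Pearson intervals, or a bound at 3 counts per library. On simulated counts of 12941 genes for this comparison, 180 of 200 changed genes were called, and 2.7% of 185 calls were false. The simulation changed few genes, as many up as down, and gave the libraries no replicate sets. It therefore checked the procedure and does not estimate the false share among the calls in the real data.

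Named genes (194) were the 10 largest called increases and decreases with a mean log2 CPM of at least 5 and 1 direction in 6 of 6 same-numbered pairs, the 6 most expressed genes switched on or off, the 5 largest gains and losses of mean CPM, and, for each of 32 lists (784 genes), the 3 largest called increases and decreases at 10 CPM or more together with list-defining genes and Trp53. Genes outside this rule, such as Asns, Gapdh, Hk2, Oas2, Ifi44, Lum and Mx1, were named after their values were seen. Some named genes are not reported here. Members and lists were chosen with earlier results of these data known. Promoter windows came from RefSeq on GRCm38.p6. Alternatives were 12 planned and 4 added after seeing the data. DESeq2 1.42.0 was one of them.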

Additional observations from a re-analysis of the deposited data

Results flagged for a closer look

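The spread within groups was examined for each of the 194 named genes. A library was picked out where its gap to the nearest of the other 5 libraries of its group, divided by the range of the group, exceeded Dixon's 95% critical value, which chance does in about 1 in 20 groups. This happened in 40 of 388 groups of 6, 20 in DMSO and 20 with the combination, and 16 times the library was DMSO replicate 1 and 17 times combination replicate 1.

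In DMSO replicate 1 the value lay above the other libraries, with these ratios of gap to range, for Irf7 (0.774), Fxyd3 (0.69), Aqp5 (0.71), Lgals1 (0.668), Rn45s (0.897), Hoxc10 (0.742), Abcc3 (0.791), H3f3b (0.649) and Krt8 (0.633). It lay under them for Canx (0.719), Cgas (0.633), Tnfrsf10b (0.777), Phf10 (0.9), Aars (0.633), Dusp4 (0.74) and Mdm2 (0.667). Phf10, a SWI/SNF subunit, stood there at 113.9 CPM against 162.4 to 167.8 CPM in the other DMSO libraries, and Rn45s at 18483 CPM against 2986 to 4588 CPM.

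In combination replicate 1 the value lay above the other libraries for Bsg (0.662), Cxcl10 (0.702), Hmgb2 (0.81), Gtse1 (0.83), Phgdh (0.658), Atp5c1 (0.809), H2az1 (0.663), H3f3b (0.644) and Lmnb1 (0.647). It lay under them for Herc6 (0.777), Oasl2 (0.627), Tlr3 (0.668), Vegfa (0.638), Smarca2 (0.695), Ern1 (0.87) and Hoxc10 (0.799). Cxcl10 stood at 62.7 CPM against 21.4 to 33.7 CPM in the other combination libraries, and Ern1, a sensor of unfolded proteins, at 75.96 CPM against 133.0 to 141.6 CPM. The lower Herc6, Oasl2 and Tlr3 and the higher Cxcl10 were in the same library.

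The other libraries picked out were DMSO replicate 2 for Kank3 (lowest, 0.63), DMSO replicate 3 for Nr4a3 (highest, 0.664), combination replicate 3 for Pnliprp1 (highest, 0.677), combination replicate 2 for Mmp19 (highest, 0.66), combination replicate 3 for Fosb (highest, 0.648), DMSO replicate 2 for Dnmt1 (highest, 0.646) and DMSO replicate 2 for Trp53 (lowest, 0.759). Trp53 in DMSO replicate 2 was 21.6 CPM against 29.4 to 31.9 CPM. For Nr4a3 and Pnliprp1 the values were at most 3 counts per library.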

How the results depend on the processing

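Across the alternatives (DESeq2 size factors or library totals in edgeR, the DESeq2 Wald test, no filter on low counts, a replicate block, only the 12 libraries compared, and each replicate number left out of every group), the counts of genes higher and lower than DMSO stayed within 1.5 times the reported ones. They were 5730 higher and 3867 lower with library totals, 4677 and 4899 with DESeq2 (2 adjusted p missing) and 5220 and 5306 of 20428 genes with no filter. Leaving out a replicate number gave 8945 to 9643 calls, and replicates 1 to 3 and 4 to 6, chosen after seeing the data, gave 7882 and 9255. In replicates 1 to 3 the counts against AU15330 alone were 1483 higher and 1334 lower. The cause of these shifts was not tested, and fewer libraries entered those fits.

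Small list counts changed as follows. With library totals, MHC class I members lower went from 1 to 0, sensing genes lower from 6 to 3, oxidative phosphorylation genes from 4 to 7 higher and 8 to 4 lower, and lysosome genes lower from 5 to 3. With no filter, leukocyte markers were 6 higher and 1 lower (1 and 0 reported), endothelial and fibroblast markers 7 higher (4 reported) and chaperones 1 higher (2 reported). With only the 12 libraries, MHC class I members lower were 0, oxidative phosphorylation genes lower 5, and endothelial and fibroblast markers higher 2. Without DMSO replicate 1 (chosen after seeing the data), chaperones higher were 1 and oxidative phosphorylation genes 7 higher and 5 lower. In replicates 1 to 3, MHC class I lower was 0, NK and T cell ligands lower 1, cholesterol genes higher 1, ATF4 genes higher 8, chaperones higher 1, glycolysis genes higher 0, oxidative phosphorylation genes higher 2, YAP/TEAD targets higher 4, immediate early genes higher 0, and epithelial-mesenchymal genes higher 3. In replicates 4 to 6, cytokines lower were 7, cholesterol genes higher 4, ATF4 genes lower 23, chaperones higher 1, oxidative phosphorylation genes lower 5, immediate early genes higher 2 and leukocyte markers higher 2. Leaving out a replicate number gave ranges of 0 to 1 for MHC class I lower, 3 to 6 for sensing lower, 1 to 2 for chaperones higher, 0 to 1 for glycolysis higher, 4 to 13 for oxidative phosphorylation lower (13 without replicate 1, 4 without replicate 3) and 1 to 2 for immediate early higher. Trp53, not called, went from 0.04 to -0.014 with no filter, to -0.077 in replicates 4 to 6, and from -0.065 to 0.11 with a replicate left out.

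Pairing of the libraries by replicate number was seen for numbers 1 and 2 and not for numbers 3 to 6. Deviations of same-numbered DMSO and combination libraries from their group means correlated at 0.299, 0.205, 0.00699, 0.0672, 0.00568 and 0.0179 for numbers 1 to 6, and 2 of the 6 combination libraries correlated best with the DMSO library of their own number. With the replicate block, 4994 genes were higher and 4895 lower, and the calls of all 194 named genes kept their direction and side of the threshold. Values near 3 counts per library, 0.120 to 0.186 CPM, are limited by counting error, and intervals cover that error only.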
